A study of Ovis aries with 16 samples.

Results

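The genes described here handle fat outside and inside the cell: apolipoproteins and the proteins that assemble and remodel lipoproteins, the lipases and receptors that unload them, the proteins that bind and take up fatty acids, the coat proteins of lipid droplets, and the enzymes that break stored fat down. They were chosen by name, 31 symbols in 6 roles, and 30 of the 31 were found among the 28524 genes of the table. APOA1 was listed under its gene number and was matched to its symbol through the RefSeq gene table. APOC3 was not analysed here.

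RNA sequencing was done on the liver and the vastus lateralis muscle of 8 female Suffolk sheep, and both tissues came from each animal. BPA sheep (910, 918, 977 and 984) were born to mothers given bisphenol A, a plasticizer with oestrogen-like activity, at 0.5 mg/kg/day in corn oil by subcutaneous injection from day 30 to day 90 of gestation. Control sheep (902, 908, 924 and 928) were born to mothers given corn oil alone over the same days. Both groups were adult, about 21 months old, and had fasted for 48 hours when tissue was taken late in the follicular phase, their cycles having been synchronised with prostaglandin F2α. Liver came from the tip of the left lobe, so each library is 1 piece of 1 organ, a mixture of cell types. The comparisons asked how exposure before birth changed the adult transcriptome of each tissue, and each of the 4 groups held 4 libraries.

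The liver packs triglyceride and cholesterol around apolipoprotein B with the help of microsomal transfer protein and secretes the particles as very low density lipoprotein. In muscle, lipoprotein lipase on the capillary wall frees fatty acids from these particles, and transport and binding proteins carry them to the mitochondria or to lipid droplets. In both tissues droplets are coated by perilipins and emptied by a chain of lipases, and during a fast the chain supplies fatty acids for oxidation.

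Values are normalized read counts, that is reads per gene divided by 1 size factor per library, not corrected for gene length, so a ratio of different genes within a library is one of counts and is compared only between libraries. Differences are on the log2(value + 1) scale with standard errors (SE), and adjusted p-values are from limma with Benjamini-Hochberg adjustment over all genes tested, at a threshold of 0.05. Recovered reads per library, in units of 1e6 (M), were 4.66 to 17.92 M in BPA livers, 4.39 to 19.28 M in control livers, 15.15 to 26.54 M in BPA muscles and 16.16 to 28.54 M in control muscles. Tissue identity followed the labels: ALB, the gene of serum albumin, measured 10447 to 739640 in liver and 2257 to 7747 in muscle, and the muscle creatine kinase gene CKM measured at most 29.1 in liver and at least 310128 in muscle. The livers were not alike. In BPA liver 910 the 15 hepatocyte markers summed to 1593363, against 297761 to 448547 in the other BPA livers. In control 902 they summed to 74741, against 1435167 to 1605035 in the other controls, while the 11 fibroblast and stellate markers summed to 120672, against 6177 to 8191.

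Liver and muscle expressed different sets of lipid handling genes. Between liver and muscle 27 of the 30 genes passed the threshold, 19 higher in liver and 8 lower, where 71.4% of the 15995 genes tested passed. The median difference of the 30 genes was 2.33 on the log2 scale, beside 0.06 for all genes. Lipoprotein production, the liver-type fatty acid proteins and the lipase inhibitor G0S2 stood on the liver side, and lipoprotein unloading, the heart-type fatty acid proteins and hormone-sensitive lipase stood on the muscle side.

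**Figure D1:**
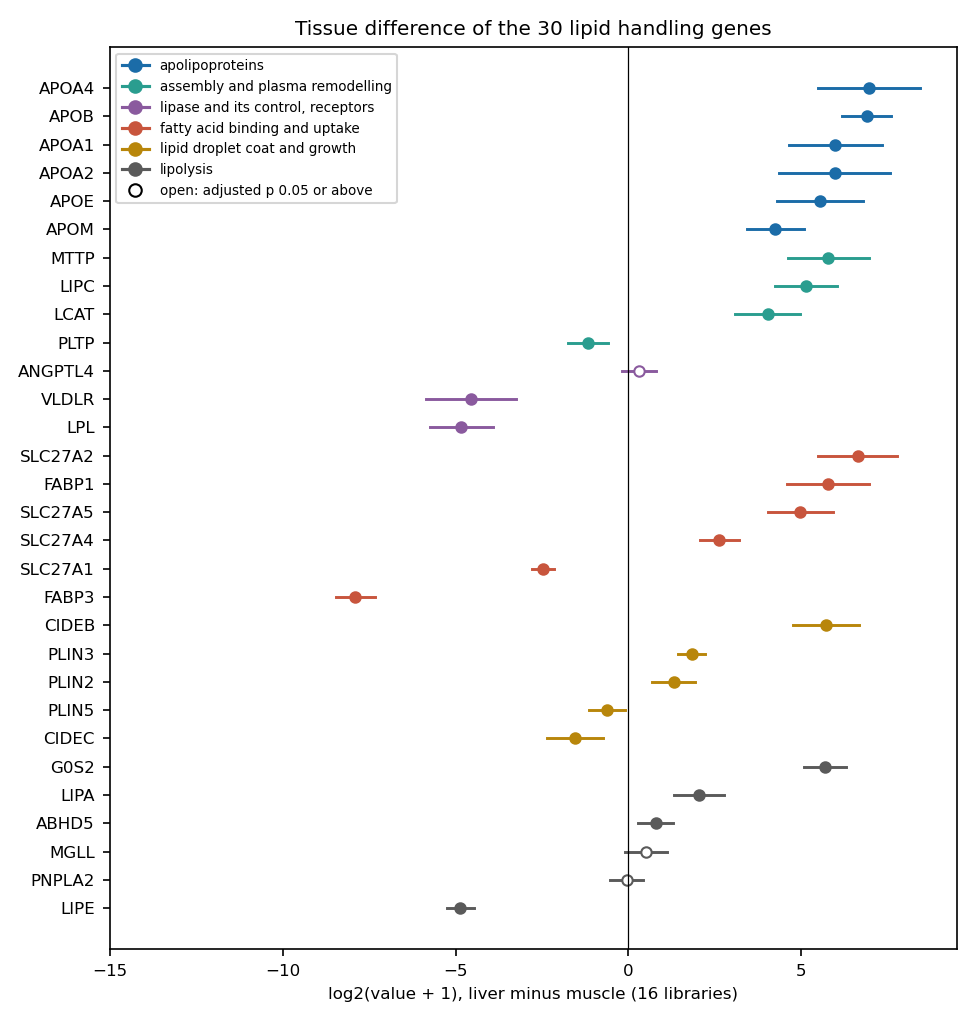
Difference between liver and muscle in log2(value + 1) for each of the 30 genes, with 95% confidence intervals, grouped and coloured by role; filled points passed the threshold. The 6 apolipoprotein genes lie between 4.25 and 6.97 on the liver side, while FABP3 lies at -7.89 on the muscle side.

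All 6 apolipoprotein genes were higher in liver, with differences of 4.25 to 6.97. APOA4, which codes for a protein of chylomicrons and high density lipoprotein, showed the largest difference (6.97, SE 0.70, adjusted p = 1.69e-07). Its levels ran from 113 through a median of 1049 to 4756 in liver, and from 2.30 through a median of 3.85 to 53.6 in muscle. The highest muscle, control 902, stayed below the lowest liver, which was also that of control 902. APOB, the structural protein of very low density lipoprotein, differed by 6.88 (SE 0.34, adjusted p = 2.39e-11), and APOA1 and APOA2, the main proteins of high density lipoprotein, by 5.99 (SE 0.63) and 5.96 (SE 0.75). APOE, the ligand for receptor uptake of remnants, differed by 5.54 (SE 0.58). APOM, a small apolipoprotein that carries sphingosine 1-phosphate, differed least in this role (4.25, SE 0.38, adjusted p = 4.95e-08). APOM ran from 119 through a median of 608 to 1128 in liver, and from 21.1 through a median of 27.3 to 47.5 in muscle.

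Of the 4 assembly and remodelling genes, 3 were higher in liver and 1 was lower. MTTP, the microsomal transfer protein that loads lipid onto apolipoprotein B, differed by 5.78 (SE 0.55, adjusted p = 8.91e-08). It ran from 67.8 through a median of 1463 to 1799 in liver, and from 8.11 through a median of 16.4 to 24.6 in muscle, without overlap. LIPC, hepatic lipase, differed by 5.14 (SE 0.42) and LCAT, which esterifies plasma cholesterol, by 4.03 (SE 0.44). PLTP, the phospholipid transfer protein of plasma, was lower in liver (-1.17, SE 0.28, adjusted p = 0.0012). PLTP ran from 22.9 through a median of 94.1 to 190.3 in liver, and from 117.7 through a median of 155 to 380 in muscle. These ranges overlapped, and control 928 was the 1 animal of 8 with more PLTP in its liver than in its muscle.

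LPL, lipoprotein lipase, and VLDLR, the very low density lipoprotein receptor, were both lower in liver. LPL differed by -4.83 (SE 0.43, adjusted p = 3.90e-08). It ran from 1.25 through a median of 30.6 to 96.1 in liver, and from 399 through a median of 578 to 844 in muscle. VLDLR differed by -4.56 (SE 0.61, adjusted p = 5.56e-06), and its liver levels were 20.8 to 41.2 in BPA sheep and 17.9 to 1291 in controls, against 905 to 1546 in the 8 muscles. The 1291 was that of control liver 902, and the next control liver had 51.9. The 7 muscle fibre markers tested in liver had a median deviation from the mean of the 8 livers of -1.03 to 1.47 in BPA livers, against 1.18 in control 902 and -1.35 to -0.74 in the other controls. The 11 fibroblast and stellate markers had a median deviation of 4.14 in control 902. It was -1.66 to -0.35 in BPA livers and -0.11 to 0.43 in the other controls. TTN, the titin gene, was at 34.4 to 606 in BPA livers, against 273 in control 902 and 16.8 to 24.8 in the other controls. In the 8 muscles TTN was at 2913460 to 4950260. ACTA1, the skeletal muscle actin gene, was at 18.8 in control liver 902 and at least 823744 in the muscles. The part of muscle RNA, or of other cell types, in the VLDLR value of control liver 902 was not tested. ANGPTL4, a secreted inhibitor of lipoprotein lipase that fasting raises in rodents and humans, did not pass (0.30, SE 0.23, adjusted p = 0.27). It ran from 354 through a median of 938 to 1248 in liver, and from 538 through a median of 672 to 824 in muscle, and was higher in the liver in 5 of 8 animals. Without sheep 902 ANGPTL4 passed (0.50, adjusted p = 0.038), as it did with sample quality weights, and over all alternatives its adjusted p was 0.017 to 0.68.

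The fatty acid binding and uptake genes split by isoform, 4 higher in liver and 2 lower. FABP3, the heart and muscle fatty acid binding protein, had the most negative difference of the 30 genes (-7.89, SE 0.26, adjusted p = 1.86e-13). It ran from 5.04 through a median of 12.1 to 17.4 in liver, on 5 to 26 reads, and from 1759 through a median of 2883 to 5396 in muscle. FABP1, the liver isoform, was at 458 to 12633 in liver and 35.2 to 71.3 in muscle, a difference of 5.77 (SE 0.55). The ratio of FABP3 to FABP1 within a library was 0.00138 to 0.0247 in the 8 livers and 25.3 to 146 in the 8 muscles.

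The acyl-CoA synthetases that draw fatty acids into cells divided in the same way. SLC27A2, which activates very long chain fatty acids, differed by 6.63 (SE 0.54, adjusted p = 1.31e-08). SLC27A2 ran from 288 through a median of 3508 to 7241 in liver, and from 10.7 through a median of 27.2 to 47.5 in muscle. SLC27A5, the bile acid CoA ligase, was also higher in liver (4.97, SE 0.45), and so was SLC27A4 (2.63, SE 0.27). SLC27A1, the isoform linked to insulin-stimulated fatty acid uptake in muscle and fat of rodents, was lower in liver in 8 of 8 animals (-2.47, SE 0.15), at 160 to 371 in liver and 967 to 1298 in muscle.

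Among droplet coat and growth genes, 3 were higher and 2 lower in liver. CIDEB, which enlarges droplets and lipoprotein particles in mouse hepatocytes, differed by 5.71 (SE 0.45, adjusted p = 1.01e-08). It ran from 198 through a median of 1740.4 to 2672 in liver, and from 19.2 through a median of 21.7 to 27.0 in muscle. CIDEC, its relative in fat cells, was lower in liver in 8 of 8 animals (-1.54, SE 0.38, adjusted p = 0.0017). CIDEC ran from 11.8 through a median of 28.4 to 48.3 in liver, and from 32.3 through a median of 85.9 to 266 in muscle, with overlapping ranges. PLIN2 and PLIN3, the coat proteins found in most tissues, were higher in liver by 1.30 (SE 0.29) and 1.83 (SE 0.18). PLIN5, the perilipin that tethers droplets to mitochondria in oxidative tissues, was lower in liver (-0.62, SE 0.25, adjusted p = 0.036). Over the alternative fits its adjusted p ranged from 0.0061 to 0.14. It was 0.056 with the animal as a block, 0.087 in edgeR, and 0.069 to 0.12 without sheep 902, 910, 918, 928 or 984.

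The lipolysis genes held both the most equal and some of the most unequal members. PNPLA2, adipose triglyceride lipase, which takes the first fatty acid off triglyceride, did not pass (-0.05, SE 0.22, 95% interval -0.52 to 0.42, adjusted p = 0.83). Its levels were 2813 to 8644 in liver and 3536 to 5342 in muscle. G0S2, the protein that inhibits this lipase, was higher in liver by 5.68 (SE 0.28, adjusted p = 2.93e-11). G0S2 ran from 1345 through a median of 2320.5 to 4850.3 in liver, and from 25.3 through a median of 46.2 to 70.2 in muscle. Its muscle values rest on 18 to 74 reads. PNPLA2 thus stood at 0.76 to 4.71 times the count of G0S2 in livers and at 60.7 to 185 times in muscles, in counts not corrected for gene length.

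LIPE, hormone-sensitive lipase, which acts next in the chain, was lower in liver (-4.86, SE 0.19, adjusted p = 1.21e-12). LIPE ran from 20.7 through a median of 23.2 to 32.4 in liver, and from 484 through a median of 710.0 to 1310 in muscle. ABHD5, the coactivator of adipose triglyceride lipase, was higher in liver in 8 of 8 animals (0.79, SE 0.24, adjusted p = 0.0082). MGLL, monoglyceride lipase, did not pass (0.50, SE 0.29, adjusted p = 0.13), although edgeR, DESeq2, quantile normalization, sample quality weights and leaving out sheep 902 (0.81, adjusted p = 0.00029) each put it past the threshold, with adjusted p over all alternatives of 1.98e-07 to 0.31. LIPA, the acid lipase of lysosomes, was higher in liver (2.04, SE 0.34, adjusted p = 5.75e-05) and in 7 of 8 animals.

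For 10 of the 30 genes the muscle median, as a percent of the gene's own liver median, fell in the range of the hepatocyte markers. The 15 hepatocyte markers had muscle medians at 0.499% to 2.57% of their liver medians, with ALB at 1.21%. APOA1, APOA2, APOB, APOE, MTTP, FABP1, SLC27A2, SLC27A5, CIDEB and G0S2 fell within that range, at 0.696% to 2.33%. APOA4 was below it at 0.367%, and 19 genes were above it, the nearest being LIPC at 2.66%. The share of all genes within that range was not counted, so the 10 of 30 is a description only. The part that RNA from liver could have in these muscle values was not tested.

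**Figure D2:**
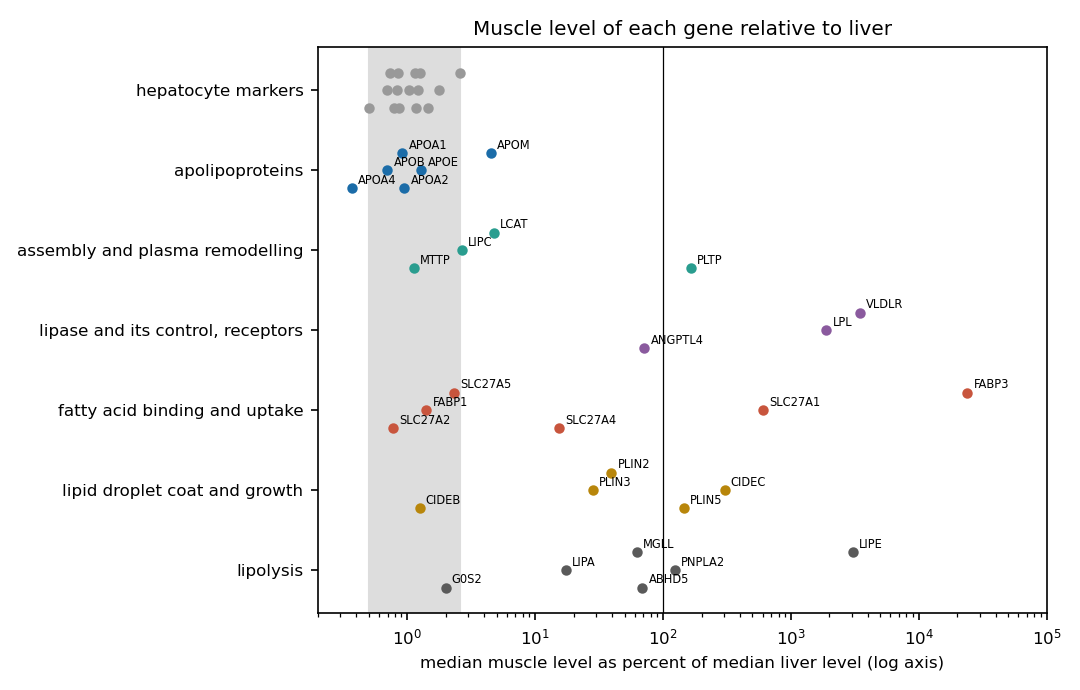
Median level in the 8 muscles as a percent of the median level in the 8 livers, on a log axis, 1 point per gene in rows by role, with the 15 hepatocyte markers in the top row and their range shaded. Of the 30 genes, 10 lie inside the shaded range of 0.499% to 2.57%, and FABP3, LPL, VLDLR and LIPE lie furthest to the right.

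In the liver, BPA sheep had lower estimates than controls for LIPA, PLTP and LPL, but no lipid handling gene passed the adjusted threshold. Of the 30 genes, 0 passed, beside 0% of the 15689 genes tested with limma. At an unadjusted p under 0.05 there were 3 of the 30, where 18.1% of all genes tested lay below it. DESeq2 and edgeR on the recovered reads also called 0 of the 30, whereas a fit with sample quality weights called 22, beside 61.1% of all genes. Estimates were higher in BPA livers for 10 genes and lower for 20, with a median of -0.28 beside -0.01 for all genes. Leaving out 1 liver at a time moved that median between -0.94 (without control 902) and 0.04 (without control 908), so its sign rests on single libraries.

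LIPA, which frees cholesterol and fatty acids from lipoproteins taken up into lysosomes, had the lowest p-value of the 30. LIPA measured 477, 106, 67.4 and 129 in BPA livers 910, 918, 977 and 984, against 1773, 531, 578 and 791 in control livers 902, 908, 924 and 928. Every BPA liver was below every control, with BPA 910 just under the lowest control and control 902 far above the rest. The difference was -2.47 (SE 0.61, unadjusted p = 0.0023, adjusted p = 0.26). Over the alternative fits the estimate ranged from -3.04 to -2.10, and the adjusted p from 3.60e-05 to 0.52.

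PLTP measured 92.5, 22.9, 44.9 and 37.8 in BPA livers 910, 918, 977 and 984, against 190.3, 95.6, 124 and 146 in control livers 902, 908, 924 and 928. The groups did not overlap, though BPA 910 and control 908 lay close together. PLTP rests on 121, 11, 36 and 45 reads in these BPA livers and 101, 139, 174 and 218 in these controls. The difference was -1.60 (SE 0.44, unadjusted p = 0.0045, adjusted p = 0.26). LIPA and PLTP were the 2 of the 30 genes whose BPA and control livers did not overlap, where 7.61% of all genes tested did not (3.98% with BPA below and 3.63% with BPA above).

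LPL, whose product acts outside hepatocytes, measured 32.1, 14.6, 1.25 and 6.72 in BPA livers 910, 918, 977 and 984, against 96.1, 33.7, 29.1 and 33.6 in control livers 902, 908, 924 and 928. These values rest on 42, 7, 1 and 8 reads in the BPA livers and 51, 49, 41 and 50 reads in the controls. BPA 910 lay among the controls, and the other 3 BPA livers lay below them. The difference was -2.15 (SE 0.80, unadjusted p = 0.023, adjusted p = 0.26).

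**Figure D3:**
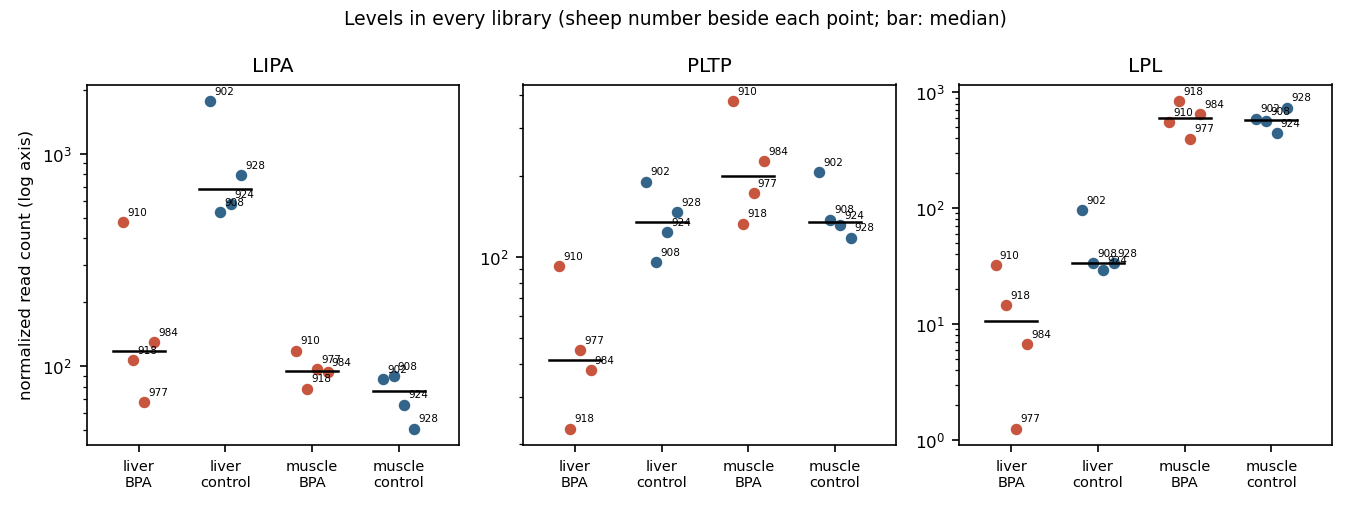
Normalized read counts of LIPA, PLTP and LPL in every library on log axes, BPA left of control within liver and within muscle, with the sheep number at each point and a bar at the median of each group of 4. All 4 BPA livers lie below all 4 control livers for LIPA and PLTP, and in muscle the groups overlap for all 3 genes.

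Whether these 3 genes passed depended on a single BPA liver and on the model. Without liver 910, 3 of the 30 genes passed, all lower in BPA: LIPA (-3.04, adjusted p = 0.0082), PLTP (-1.96, adjusted p = 0.014) and LPL (-2.74, adjusted p = 0.042). In that fit 16.5% of all genes passed (2595). With all 16 libraries in 1 fit, 910 included, the same 3 of the 30 passed, beside 14.7% of all genes. Leaving out any other single liver left 0 of the 30. Without control 902 the estimates were -2.10 for LIPA, -1.44 for PLTP and -1.77 for LPL, with adjusted p of 0.13, 0.13 and 0.17.

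Several lists of cell type markers also had lower estimates in BPA livers. All 9 macrophage and Kupffer cell markers in the table had lower estimates in BPA livers (median -1.68), 7 of them at an unadjusted p under 0.05 and 0 after adjustment. Their summed level was 3676, 804, 1285 and 1768 in BPA livers 910, 918, 977 and 984, against 7460, 4305, 4339 and 6268 in control livers 902, 908, 924 and 928, again with 910 highest among BPA livers and 902 highest among controls. The 11 fibroblast and stellate markers also had lower estimates in BPA (11 of 11), and so did the cholangiocyte markers (5 of 5, median -1.24), 7 of 9 endothelial markers (median -0.86) and the 10 cytosolic ribosomal protein genes (10 of 10). At an unadjusted p under 0.05 were 6 of the fibroblast, 3 of the cholangiocyte, 4 of the endothelial and 10 of the ribosomal genes, and 0 were called after adjustment. Of the 15 hepatocyte markers 13 had lower estimates (median -0.43), with 0 under that p. Of the 7 muscle fibre markers tested, 5 had higher estimates and 2 lower. Among all genes tested 18.1% lay under that p. In bulk tissue fewer cells of a type and less RNA per cell cannot be told apart. The part of cell makeup in the values of LIPA, PLTP and LPL was not tested.

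On the higher side, the smallest p-values belonged to ABHD5, PLIN5 and SLC27A1. ABHD5 measured 290.4, 1264, 578 and 321 in BPA livers 910, 918, 977 and 984, against 339, 267, 344 and 263 in control livers 902, 908, 924 and 928. The estimate of 0.76 (SE 0.45, adjusted p = 0.36) came mostly from BPA 918 and 977, with 910 and 984 among the controls. PLIN5 measured 723, 1830, 2816 and 1343 in BPA livers 910, 918, 977 and 984, against 594, 1177, 1265 and 843 in control livers 902, 908, 924 and 928. For PLIN5 the 3 BPA livers other than 910 lay above all controls, and the difference was 0.69 (SE 0.45, adjusted p = 0.40). SLC27A1 measured 201, 175, 371 and 298 in BPA livers 910, 918, 977 and 984, against 166, 160, 221 and 205 in control livers 902, 908, 924 and 928. Here BPA 977 and 984 lay above the controls and 910 and 918 among them, a difference of 0.42 (SE 0.31, adjusted p = 0.45).

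Adipose triglyceride lipase behaved unevenly among BPA livers. PNPLA2 measured 3447, 2813, 8540 and 8644 in BPA livers 910, 918, 977 and 984, against 3814, 3561, 3687 and 3225 in control livers 902, 908, 924 and 928. BPA 977 and 984 had the highest levels, BPA 918 had the lowest, and the 4 controls lay close together (difference 0.54, SE 0.45, adjusted p = 0.50).

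None of the 6 apolipoprotein genes passed in liver, and the spread within groups was wide. Estimates ran from -0.92 (APOA2, SE 1.35) to 0.38 (APOB, SE 0.82), 2 higher and 4 lower, and the 95% interval of APOA2 ran from -3.94 to 2.11. The fit with sample quality weights called APOA1, APOA2, APOE and APOM lower in BPA, with adjusted p of 0.00025 to 0.0038, and the other alternatives called none of the 4. APOA1 measured 33486, 10069, 8805 and 5267 in BPA livers 910, 918, 977 and 984, against 1114, 37479, 43421 and 38656 in control livers 902, 908, 924 and 928. BPA 910 lay close to the upper 3 controls, the other BPA livers lay in between, and control 902 was far below all. APOE was spread in a like way, with 82120.2 in BPA 910 and 20851 to 31062 in the other BPA livers, against 2649 in control 902 and 79648 to 80990.5 in the other controls. APOB varied less, at 59654 to 95492 in BPA livers, against 15160 in control 902 and 90970.3 to 98668 in the other controls.

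FABP1 had the lowest estimate of the uptake genes. It measured 4992, 1233, 1052 and 800.5 in BPA livers 910, 918, 977 and 984, against 458, 6065, 8622 and 12633 in control livers 902, 908, 924 and 928. The estimate was -1.47 (SE 1.001, adjusted p = 0.42), with the lowest level of all in control 902. MTTP measured 1708, 1387, 635 and 664 in the same BPA livers, against 67.8, 1787, 1539 and 1799 in the controls, and its estimate was 0.39 (SE 0.98, adjusted p = 0.84). Its sign was not stable: 16 of 20 alternative fits kept it, and the estimate ranged from -1.23 to 1.15.

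Control liver 902 was the lowest of the 8 livers for 20 of the 30 genes (66.7%), where it was the lowest for 23.4% of all genes tested. It was the highest for 4, namely LIPA, PLTP, LPL and VLDLR. BPA liver 910 lay above the other 3 BPA livers for 17 of the 30 genes (56.7%), beside 34.7% of all genes, and within the range of controls 908, 924 and 928 for 13 (43.3%), beside 46.4%. Depth followed the same divide, since BPA 910 and controls 908, 924 and 928 held 17.92 to 19.28 M reads and the other 4 livers 4.39 to 10.64 M. With the library total as a covariate, 21 of the 30 estimates were higher in BPA and 9 lower, and 11 had changed sign, while LIPA (-2.46), PLTP (-1.52) and LPL (-2.23) stayed lower with adjusted p of 0.19 to 0.20.

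**Figure D4:**
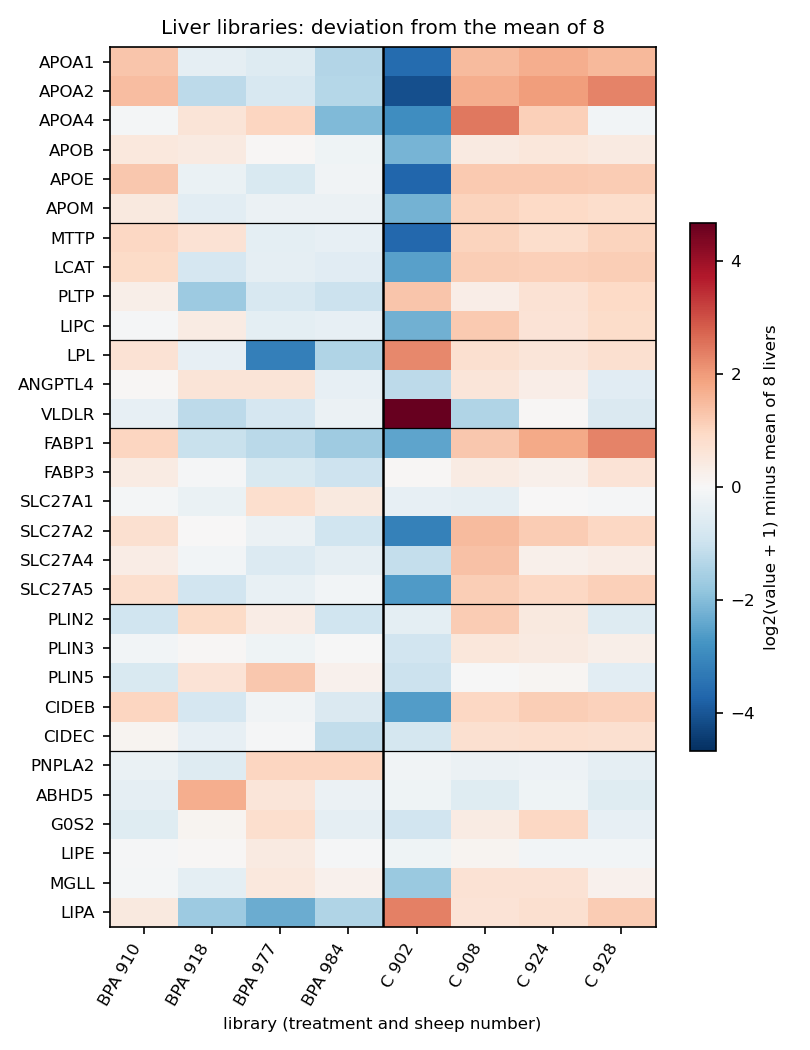
Deviation of log2(value + 1) from the mean of the 8 livers for the 30 genes in rows by role, with the 4 BPA livers left of the line and the 4 control livers right of it. Control 902 is the lowest liver for 20 of the 30 genes and the highest for LIPA, PLTP, LPL and VLDLR, and BPA 910 is above the other BPA livers for APOA1, APOA2 and APOE.

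In muscle, BPA sheep had lower estimates for the liver-type genes APOB, MTTP and SLC27A2, and none of the 30 genes passed the adjusted threshold. Of the 30 genes, 0 passed with limma, beside 0.129% of the 14706 genes tested, and 3 had an unadjusted p under 0.05, where 7.77% of all genes did. DESeq2 and edgeR called 0 of the 30, and sample quality weights called APOB and MTTP, beside 2.56% of all genes. Estimates were higher for 15 genes and lower for 15, with a median of 0.00 beside 0.00 for all genes. The median SE of the 30 genes was 0.64 in liver and 0.22 in muscle.

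APOB measured 611, 280.1, 484 and 431 in BPA muscles 910, 918, 977 and 984, against 1054, 690.2, 651 and 688 in control muscles 902, 908, 924 and 928. Every BPA muscle was below every control, and control 902 was far above the rest. The difference was -0.80 (SE 0.22, unadjusted p = 0.0040, adjusted p = 0.32). Without control 902 it was -0.64, with an adjusted p of 0.48.

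MTTP, the partner of APOB in lipoprotein assembly, measured 15.6, 9.98, 9.83 and 8.11 in BPA muscles 910, 918, 977 and 984, against 18.3, 24.4, 24.6 and 17.2 in control muscles 902, 908, 924 and 928. The groups did not overlap, on 7 to 14 reads in BPA muscles and 15 to 29 in controls. The difference was -0.92 (SE 0.29, unadjusted p = 0.0089, adjusted p = 0.43). APOB and MTTP were the 2 of the 30 genes whose BPA and control muscles did not overlap, where 4.53% of all genes tested did not (2.48% with BPA below and 2.05% with BPA above).

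SLC27A2 measured 32.3, 10.7, 16.8 and 21.1 in BPA muscles 910, 918, 977 and 984, against 47.5, 34.6, 36.4 and 22.1 in control muscles 902, 908, 924 and 928. The groups overlapped through BPA 910, on 12 to 29 reads in BPA muscles and 27 to 41 in controls. The difference was -0.82 (SE 0.34, unadjusted p = 0.034, adjusted p = 0.59). The 6 apolipoprotein genes all had lower estimates in BPA muscle, from -1.46 (APOA4, on 2 to 4 reads in BPA muscles and 3 to 44 in controls) to -0.06 (APOE), and none passed.

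Hepatocyte markers also had lower estimates in BPA muscles. All 15 had lower estimates in BPA muscles (median -0.59), and FGA (-1.20, adjusted p = 0.00062) and FGB (-1.35, adjusted p = 0.00090), which encode fibrinogen chains, passed. Their summed level was 11405, 5553, 7711 and 7739 in BPA muscles 910, 918, 977 and 984, against 16948, 12233, 11299 and 11827 in control muscles 902, 908, 924 and 928. BPA 910 alone among BPA muscles reached the control range. Control 902, with the highest sum, had MTTP at 18.3 on 15 reads. Controls 908 and 924 had it at 24.4 and 24.6, on 29 and 21 reads. In BPA 910 MTTP was at 15.6 on 14 reads, below every control. Whether gaps on so few reads exceed counting noise was not tested. APOB as a percent of ALB within a library was 12.1% to 13.0% in BPA muscles, against 13.6% to 15.6% in control muscles. In livers that percent was 17.4% in BPA 910 and 45.8% to 65.3% in the other BPA livers, against 13.0% to 13.5% in controls 908, 924 and 928 and 145% in control 902. FABP1 and APOE were higher as a percent of ALB in BPA muscles, but ALB itself had a lower estimate there. ALB was at 2257 to 5050 in BPA muscles, against 4401 to 7747 in control muscles. FABP1 was at 1.17% to 1.63% of ALB in BPA muscles, against 0.676% to 1.003% in control muscles. APOE was at 17.3% to 27.1% of ALB in BPA muscles, against 12.4% to 16.4% in control muscles. For APOA1 and APOA2 the percents of the groups overlapped. The muscle estimate of FABP1 was higher in BPA (0.196, SE 0.226, adjusted p = 0.868). That of APOE was lower (-0.06, SE 0.14, adjusted p = 0.94). The share of all genes whose percent of ALB separated the groups was not counted, so these percents are a description only. The part of liver-type RNA in the muscle values of APOB, MTTP and SLC27A2 was not tested.

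**Figure D5:**
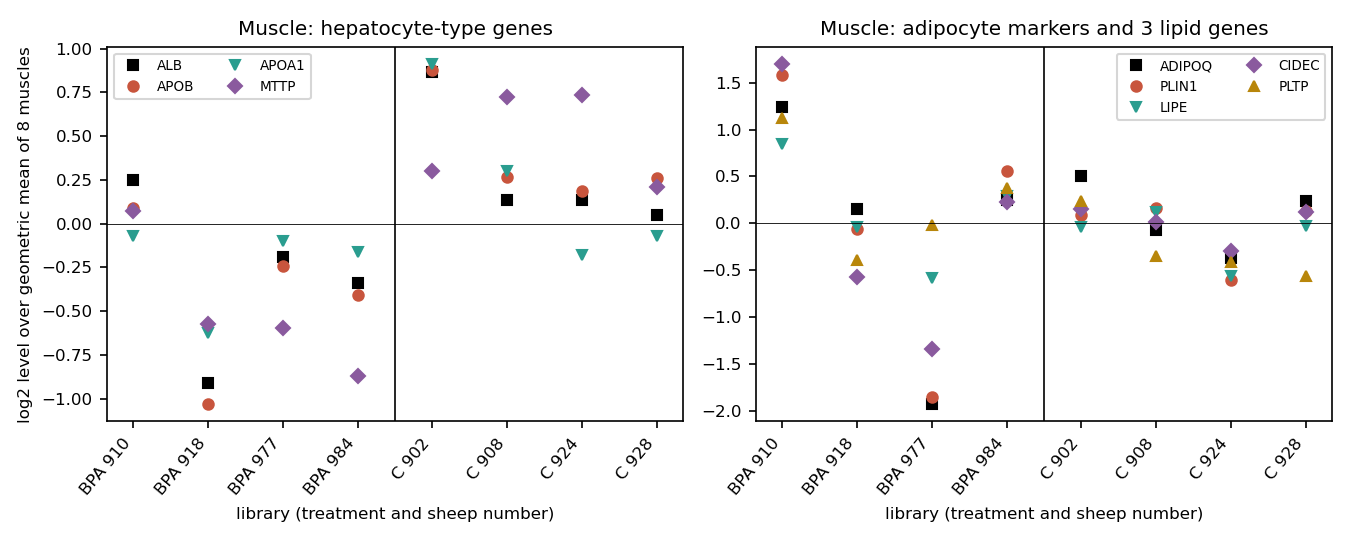
Level in each muscle over the geometric mean of the 8 muscles, on the log2 scale, with BPA muscles left of the line and control muscles right of it: at left ALB with APOB, APOA1 and MTTP, at right the adipocyte markers ADIPOQ and PLIN1 with LIPE, CIDEC and PLTP. APOB lies close to ALB in every library, and BPA 910 is highest for all 5 genes at right.

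On the higher side in muscle, the smallest p-values belonged to LIPA, PLTP and SLC27A5. LIPA measured 118, 78.3, 96.8 and 93.2 in BPA muscles 910, 918, 977 and 984, against 86.4, 89.3, 65.7 and 50.7 in control muscles 902, 908, 924 and 928. The groups overlapped through BPA 918, and the difference was 0.42 (SE 0.20, adjusted p = 0.66). PLTP measured 380, 133, 173 and 226 in the same BPA muscles, against 206, 137, 131 and 118 in the controls, with 910 highest of all (0.54, SE 0.28, adjusted p = 0.70). SLC27A5 measured 218, 203, 184 and 223 in BPA muscles 910, 918, 977 and 984, against 189, 177, 191 and 185 in control muscles 902, 908, 924 and 928. Its groups overlapped through BPA 977, and the difference was 0.15 (SE 0.10, adjusted p = 0.77).

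CIDEC and LIPE, which are abundant in fat cells, were highest in BPA 910 and lowest in BPA 977, as were some of the adipocyte markers. CIDEC measured 266, 55.3, 32.3 and 95.7 in BPA muscles 910, 918, 977 and 984, against 91.3, 82.6, 66.9 and 89.1 in control muscles 902, 908, 924 and 928. LIPE measured 1310 in BPA 910 and 484 in BPA 977, the highest and the lowest of the 8 muscles, against 494 to 792 in controls. ADIPOQ, the adiponectin gene, measured 1304 in BPA 910 and 145 in BPA 977, against 426 to 782 in controls, and PLIN1, the perilipin of fat cells, 1317 and 122, against 289 to 493. Of the 11 adipocyte markers 6 were highest of the 8 muscles in BPA 910 (ADIPOQ, PLIN1, FABP4, LEP, TRARG1 and ACVR1C), and others were not. CFD was at 374 in BPA 910 and 434 in BPA 977, SLC7A10 at 232 and 230.2, and AQP7 was highest in control 928. FABP4 in BPA 977, at 223, lay among the controls. The 9 adipocyte markers tested in muscle split into 4 higher and 5 lower estimates in BPA with none called, and all 11 summed to 1367 to 4602 in BPA muscles and 1719 to 2529 in control muscles. Of that list CFD was above every muscle in livers 910, 908, 924 and 928, and LEP was listed at 0 in 6 of the 8 livers. BPA muscle 910 was also the highest of the 8 for the summed fibroblast and stellate markers (20617, against 12483 to 16415 in the others). The same held for the macrophage and Kupffer cell markers (1593, against 850 to 1231). BPA 977, at 14174 and 1120, was not the lowest for either. The part of fat tissue between fibres, or of these other cells, in the muscle values was not tested. Group estimates were 0.01 for CIDEC (SE 0.49) and 0.26 for LIPE (SE 0.25).

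The genes called higher in muscle than in liver gave estimates between BPA and control muscles from -0.23 (VLDLR, SE 0.13) to 0.54 (PLTP, SE 0.28). None of them passed. LPL measured 554, 844, 399 and 645 in BPA muscles 910, 918, 977 and 984, against 593, 563, 446 and 738 in control muscles 902, 908, 924 and 928, a difference of 0.03 (95% interval -0.43 to 0.49). BPA 918 was the highest and BPA 977 the lowest of the 8. FABP3 followed the same order in BPA muscles, at 1804, 5396, 1759 and 3206 in BPA muscles 910, 918, 977 and 984, against 3966, 2560.3, 1979.6 and 3453 in control muscles 902, 908, 924 and 928 (-0.08, 95% interval -0.81 to 0.65). SLC27A1 differed by 0.09 (95% interval -0.12 to 0.30). PNPLA2, which was not called between the tissues, differed by 0.08 (95% interval -0.17 to 0.34).

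The effect of BPA was then compared between the tissues, as the difference in liver minus the difference in muscle. None of the 30 genes passed with limma, beside 0% of the 13677 genes tested, and 3 had an unadjusted p under 0.05, where 19.5% of all genes did. LIPA had the most negative value (-2.89, SE 0.69, adjusted p = 0.19), followed by LPL (-2.19, SE 0.86, adjusted p = 0.22) and PLTP (-2.14, SE 0.55, adjusted p = 0.19). For LIPA and PLTP the estimates had opposite signs in the tissues, lower in BPA liver and higher in BPA muscle, whereas for LPL the muscle estimate was 0.03. DESeq2 called LIPA and PLTP, beside 1.08% of all genes, and edgeR called none. Sample quality weights called 18 of the 30, beside 60.3% of all genes. Without sheep 910, 22.1% of all genes passed with limma and so did these 3 of the 30 (LIPA -3.36, adjusted p = 0.0012; PLTP -2.22, adjusted p = 0.0038; LPL -2.81, adjusted p = 0.024). Over all alternatives the adjusted p reached 0.49 for LIPA and PLTP and 0.50 for LPL. On the positive side APOB (1.18, SE 0.68, adjusted p = 0.32), PLIN5 (0.67, SE 0.50) and ABHD5 (0.64, SE 0.48) had the lowest p-values. For APOB the value ranged from 0.31 to 2.05 over the alternative fits, with adjusted p of 0.19 to 0.56.

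Neighbouring genes of the same pathways were described from 6 lists of genes outside the 30. In the BPA comparisons and in the difference of BPA effects 0 of their genes were called in either tissue. Between tissues, 11 of 14 tested genes of lipoprotein assembly and remodelling were higher in liver and 2 lower, led by APOA5 (7.08), PON1 (6.98) and APOF (6.90). Among lipoprotein receptors and sterol transporters 7 of 12 were higher and 3 lower, led by the sterol exporters ABCG8 (6.57) and ABCG5 (6.37) and the sterol importer NPC1L1 (5.83). Fatty acid uptake and activation genes split evenly, 7 higher and 7 lower of 16, with ACSL5 at 5.04, FABP5 at -4.99 and FABP4 at -4.57. Of 13 triglyceride synthesis genes 8 were higher and 3 lower, with MOGAT1 at 6.16, LPIN1 at -4.52 and LPIN2 at 3.19. Droplet genes split 8 higher and 5 lower of 16, with the muscle and fat perilipin PLIN4 at -10.07 and the hepatic droplet proteins HSD17B11 (5.88) and HSD17B13 (5.75). Of 12 transcription factors 6 were higher and 5 lower, led by CREB3L3 (7.62), HNF4A (6.82) and MLXIPL (6.04), which regulate hepatic lipid genes. For all genes tested 36.1% were called higher in liver and 35.3% lower.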

How the data were processed

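The authors deposited 1 table of signal for the 16 libraries, in which the reads of each gene had been scaled by a size factor. The submitters' processing notes name Trimmomatic, FastQC and DESeq2 (1.24.0), and the labels' protocols name ribosome depletion and a low-input library kit. Aligner, counter, annotation, build and strandedness: not given in the sources used here, so reads of near-identical or overlapping genes may be split or shared. Whole reads were recovered from the step of each library: at least 99.996% of values were whole within a tolerance of 0.1 read. No deposited column was left unused (0).

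limma 3.58.1 in R 4.3.3 was run on log2(value + 1) with an intensity trend, per tissue on 8 libraries (genes averaging at least 10), and in a 4-group fit of 16 libraries for liver minus muscle and for the difference of BPA effects, two-sided, with Benjamini-Hochberg adjustment over all genes tested and a threshold of 0.05. This scale understates changes of low genes. All 30 genes passed the filter in every comparison. edgeR 4.0.16 and DESeq2 1.42.0 were run on the recovered reads. The fits were checked on simulated data. Percent values and ratios within a library come from the same normalized values.

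The sheep number marks the same animal in both tissues, per the labels, which pairs the libraries. Deviations of an animal's liver and muscle from their group means correlated by -0.10 to 0.12 across genes. The highest correlation of a liver with any other animal's muscle was 0.089 to 0.17, above the own value in every sheep but 984. The pairing thus rests on the labels alone. Named genes were the 3 smallest p per direction in each BPA comparison and the extremes of each role between tissues; other members described with values by library (APOA1, APOE, FABP1, PNPLA2, CIDEC, LIPE, FABP3 and LPL in muscle, MTTP in liver) were chosen after their values were seen. The members and lists were chosen with earlier results of these data known. Groups were separate animals. Sequences are not shown.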

Additional observations from a re-analysis of the deposited data

Results flagged for a closer look

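In 21 of 120 groups of 4 libraries 1 library lay far from the other 3, by a gap above Dixon's 95% critical value; chance gives about 1 in 20. BPA liver 910 accounted for 6, each time as the highest BPA liver. These were APOA1 (33486, against 5267 to 10069 in the other 3 BPA livers), APOA2 (29654, against 4270.3 to 6503), APOE (82120.2, against 20851 to 31062), LCAT (5174, against 1609 to 2067), FABP1 (4992, against 800.5 to 1233) and LIPA (477, against 67.4 to 129).

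Control liver 902 accounted for 11 of the 21. It was low for APOA1 (1114, against 37479 to 43421 in the other 3 control livers), APOB (15160, against 90970.3 to 98668), APOE (2649, against 79648 to 80990.5), APOM (119, against 974 to 1128), MTTP (67.8, against 1539 to 1799), LCAT (479, against 5973 to 6196), SLC27A5 (970.4, against 12107 to 13479.5), CIDEB (198, against 2392 to 2672) and CIDEC (15.1, against 47.0 to 48.3). It was high for LPL (96.1, against 29.1 to 33.7) and VLDLR (1291, against 17.9 to 51.9).

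Control muscle 902 was high for APOA4 (53.6, against 2.53 to 9.39 in the other 3 control muscles), APOB (1054, against 651 to 690.2) and APOE (963, against 671 to 720.3). Control muscle 908 was low for LIPC (7.58, against 14.1 to 14.7).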

How the results depend on the processing

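The alternatives were pseudocounts of 0.5 and 5, no filter and a mean of at least 50, other scalings, robust and weighted fits, count tests, all 16 libraries in 1 fit, the library total as covariate, and leaving out libraries or animals. In liver, sample quality weights called 22 of the 30 genes (4 higher in BPA, 18 lower; 9588 of all genes), the fit of all 16 libraries 3 (LIPA, PLTP and LPL; 2299 of all genes), and leaving out single livers 0 to 3. DESeq2 called 196 of all genes in liver and 2595 passed without liver 910, against 0. In muscle, weights called 2 of the 30 (APOB and MTTP, lower) and 377 of all genes, DESeq2 131 and the 16-library fit 0, against 19. For the difference of BPA effects DESeq2 called 2 of the 30 (148 of all genes), weights 18 (4 positive, 14 negative; 8245 of all genes), and leaving out animals 0 to 3 (3020 of all genes without sheep 910). Between tissues 26 to 28 of the 30 passed in every alternative. With the animal as a block, pairing liver and muscle, 26 passed (11091 of all genes) and 0 for the difference of BPA effects; PLIN5 was the gene lost. edgeR moved the median of all genes between tissues to 0.20, against 0.06. No named gene reversed past the threshold. The cause of these shifts was not tested. Few reads limit LPL, FABP3, CIDEC, VLDLR, PLTP and LIPE in liver, where the lowest library held 1 to 11. In muscle they limit APOA4, LIPC, MTTP, SLC27A2, APOM, CIDEB and G0S2, where the lowest library held 2 to 18. Depth below 5 M reads limits livers 902 and 918.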

Other observations

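Sheep 902 stood at opposite ends in its tissues for the apolipoprotein genes. Its liver was the lowest of the 8 for all 6, while its muscle was the highest of the 8 for 9 of the 30 genes (30.0%, beside 14.7% of all genes tested in muscle), among them the same 6. ALB was at 10447 in the liver of 902, and at 7747 in its muscle, against 4401 to 4662 in the other control muscles. Muscle 902 held APOB at 13.6% of ALB, against 14.0% to 15.6% in the other control muscles.

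Muscle 918, from a BPA sheep, was the lowest of the 8 for 10 of the 30 genes (33.3%, beside 12.8% of all genes tested in muscle), among them APOA1, APOA2, APOA4, APOB and APOE, and the highest for LPL, FABP3, PLIN5 and ABHD5. In the liver of the same animal ABHD5 was also the highest, at 1264. Muscle 977 was the lowest for 8 of the 30 (26.7%, beside 12.0% of all genes), including LPL, FABP3, PLIN5, VLDLR, CIDEC and LIPE.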
